A study of Homo sapiens with 16 samples.

Results

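The Sprouty and SPRED genes SPRY1, SPRY2, SPRY4, SPRED1, SPRED2 and SPRED3 were followed in lung carcinoma cells that met hepatocyte growth factor (HGF), the ligand of the receptor MET. They were taken by gene symbol, 6 of the 42351 genes in the deposited table of counts, and all 6 were among the 15067 genes with enough counts to be tested. RNA had been sequenced in 2 biological replicates after 0, 3, 6 and 12 h of HGF in each of 2 lines, which gives 8 conditions and 16 libraries. The lines were A549, a lung adenocarcinoma line that the sample labels give as expressing wild-type (wt) MET, and NCI-H596, a lung adenosquamous carcinoma line that expresses MET∆14, a receptor shortened by skipping of its juxtamembrane exon. In the study's text the line with wt MET used for sequencing goes unnamed, and WT abbreviates another line, EKVX. Every library, 0 h included, came from serum-starved cells. The labels give 12 h of starvation, and the study's methods give a longer time. Each MET status is a single cell line, so the receptor and everything else that separates the lines cannot be told apart. No untreated cells were collected at 3, 6 or 12 h, and the effects of HGF and of time in culture cannot be told apart either. The dose of HGF in these cultures is not given in the sources used here.

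Sprouty and SPRED proteins are intracellular brakes on receptor tyrosine kinases. Ligand-bound receptors switch on RAS, which drives the kinases RAF, MEK and ERK, and ERK activity in turn raises transcription of Sprouty genes, whose products dampen the pathway that induced them. Sprouty proteins sit at the membrane through a cysteine-rich domain and bind adaptors and ligases such as GRB2 and CBL, and SPRED proteins carry an EVH1 domain through which SPRED1 brings neurofibromin, a RAS-inactivating protein encoded by NF1, to the membrane. In the developing lung, Sprouty genes restrain the branching of airways that fibroblast growth factors stimulate.

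Total counts ranged from 10158590 to 23909304 per library, and between 0.0118% and 0.0534% of them fell on the 6 genes. Replicates differed by more than sampling noise in every condition. The chi-square of their counts per degree of freedom was 34.1 in MET∆14 cells at 12 h, the pair that stood apart most. It was 9.80 in wt MET cells at 0 h, the baseline of the wt MET changes from 0 h, and 2.75 to 4.48 in the other conditions. MET was measured at 1206 to 1539 CPM (counts per 1000000 counts of the TMM-scaled library) in wt MET cells and at 369.5 to 443 CPM in MET∆14 cells, and HGF had at most 1 count in any library. CDKN2A, which is deleted in A549, had 0 counts in all 8 wt MET libraries, and MTAP, lost with it, had 5 to 23 counts there. The 5 squamous markers summed to 0.970 to 3.10 CPM in wt MET cells and to 2348 to 3336 CPM in MET∆14 cells, while the 5 alveolar or adenocarcinoma markers, led by NKX2-1, reached at most 2.26 CPM in sum in either line. The squamous markers thus set the lines apart, while the alveolar or adenocarcinoma list was low in both and does not help to place A549. The 6 epithelial markers summed to 3155 to 4668 CPM with wt MET and 2241 to 3604 with MET∆14, mostly keratins. EPCAM and CDH1 reached at most 2.97 and 12.6 CPM in wt MET cells. The 4 fibroblast markers summed to 11.1 to 19.3 CPM with wt MET and 187 to 346 with MET∆14, mostly COL3A1, whereas DCN and LUM had at most 2 counts in any library. The 4 leukocyte markers summed to 34.5 to 42.0 CPM and 114.5 to 176, mostly CD68, whereas PTPRC and CD3E had at most 2 counts. The 3 endothelial markers stayed at or under 1.99 CPM in sum. Their part in the differences between the lines was not tested. In bulk RNA of this kind, fewer cells with a transcript and less of it per cell cannot be told apart.

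Before HGF, most of the 6 genes were lower in MET∆14 cells. At 0 h, 5 of the 6 genes were lower there than in wt MET cells by edgeR's quasi-likelihood test. Of all tested genes, 39.6% were called lower and 80.2% in either direction (call: Benjamini-Hochberg adjusted p under 0.05, over all 15067 genes). The median difference of the 6 was -1.05 on the log2 scale, beside 0.02 over all tested genes. SPRY2 differed most, 6.335-fold lower in MET∆14 cells (log2 difference -2.66 ± 0.12, SE), followed by SPRY4 at 3.59-fold and SPRED2 at 2.475-fold lower. SPRED3 and SPRED1 were lower by 1.74-fold and 1.52-fold. SPRY1 had no called difference (log2 difference 0.29 ± 0.25, adjusted p = 0.299). Levels of different genes were compared roughly, per kilobase of the merged exons of each gene. SPRED2 and SPRY2 led in wt MET cells at 0 h with 22.4 and 21.7 CPM per kilobase, and SPRED2 led in MET∆14 cells with 9.06. SPRY1 and SPRED3 were the lowest of wt MET cells, at 1.08 and 0.877 CPM per kilobase. Their place among all tested genes was low too, with SPRED3 of MET∆14 cells at the 16.9th percentile.

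**Figure D1:**
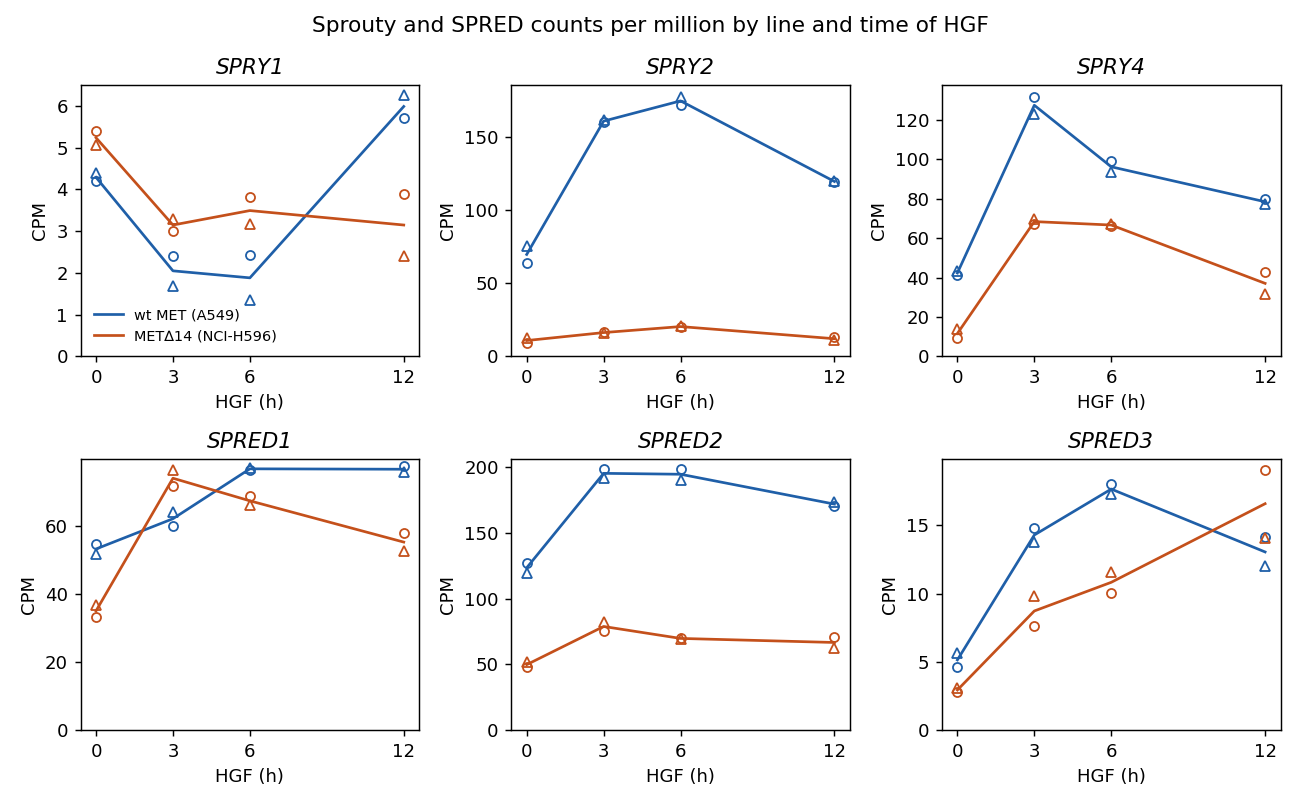
CPM (linear axis from 0) of each gene against hours of HGF. Circles are replicate 1, triangles replicate 2 and lines the means of 2 replicates, for wt MET (blue) and MET∆14 (orange). SPRY2 of wt MET cells stayed above every MET∆14 library at all times, and SPRED1 at 3 h was higher in both MET∆14 libraries than in both wt MET libraries.

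SPRY4, a Sprouty that inhibits RAS activation downstream of growth factor receptors, rose early in both lines. The fold change was larger in MET∆14 cells, which started lower, while the gain in CPM at 3 h was larger in wt MET cells. In wt MET cells it was measured at 41.5 and 43.1 CPM at 0 h, 131.5 and 123 at 3 h, 99.0 and 93.3 at 6 h, and 79.6 and 77.2 at 12 h. In MET∆14 cells it started at 9.58 and 13.7 CPM and reached 67.3 and 69.4 at 3 h, 65.9 and 67.35 at 6 h, and 42.6 and 31.5 at 12 h. Every treated library lay above both 0 h libraries of its own line, yet the peak of MET∆14 cells stayed below the lowest treated value of wt MET cells. The rise at 3 h was 3.01-fold with wt MET (log2 1.59 ± 0.13, adjusted p = 1.07e-06) and 5.81-fold with MET∆14 (log2 2.54 ± 0.15, adjusted p = 1.56e-08). At 6 h these values were 2.27-fold and 5.66-fold, and at 12 h 1.85-fold and 3.18-fold, all called. The response was larger in MET∆14 cells by 0.95 ± 0.19 at 3 h, 1.32 ± 0.19 at 6 h and 0.78 ± 0.20 at 12 h on the log2 scale (adjusted p = 0.00336, 0.000129 and 0.0101), of which the difference at 12 h was not called without replicate 1 of MET∆14 cells at 0 h (0.56, adjusted p = 0.0569). These contrasts share the 0 h libraries of each line.

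The gene lies on chromosome 5 (hg38, 142310427 to 142326455, minus strand). Its promoter window, 250 bases before to 50 after the RefSeq start (GRCh38.p14, chr5:142324198-142324497, written along the minus strand), is shown because SPRY4 had the largest mean response of the family in MET∆14 cells. Capitals mark TGACG, the first letters of a cAMP response element, 68 bases before the start.
SPRY4: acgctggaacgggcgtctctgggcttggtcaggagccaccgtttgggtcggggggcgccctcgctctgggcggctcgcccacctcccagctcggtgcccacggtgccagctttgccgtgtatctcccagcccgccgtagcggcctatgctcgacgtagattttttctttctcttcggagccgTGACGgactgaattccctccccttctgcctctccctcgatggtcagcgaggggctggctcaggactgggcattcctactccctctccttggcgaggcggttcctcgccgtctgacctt

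SPRY2, the Sprouty known for binding the ubiquitin ligase CBL, kept the order of the lines throughout. In wt MET cells the libraries gave 64.1 and 75.15 CPM at 0 h, 159.9 and 161 at 3 h, 172 and 177 at 6 h, and 119.3 and 119.4 at 12 h. In MET∆14 cells they gave 9.19 and 12.6 CPM at 0 h, 16.9 and 15.8 at 3 h, 20.2 and 20.6 at 6 h, and 13.1 and 11.1 at 12 h. All 8 wt MET libraries lay above all 8 MET∆14 libraries, and in MET∆14 cells the 12 h values overlapped those of 0 h. With wt MET the rise was 2.31-fold at 3 h, 2.504-fold at 6 h and 1.71-fold at 12 h, each called. With MET∆14 it was 1.48-fold at 3 h (adjusted p = 0.00463) and 1.86-fold at 6 h, and at 12 h the log2 difference from 0 h was 0.16 ± 0.14 (adjusted p = 0.399). The call at 3 h in MET∆14 cells was lost without replicate 1 of 0 h (log2 0.37, adjusted p = 0.0689). In CPM per kilobase of exons, SPRY2 of wt MET cells at 6 h stood at the 94.7th percentile of tested genes.

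The gene lies on chromosome 13 (hg38, 80335976 to 80341126, minus strand). Of its 3 RefSeq promoter windows, the one that holds a searched motif is shown, since SPRY2 differed most between the lines before HGF (chr13:80341077-80341376, minus strand). Capitals mark TGACG, 190 bases before the start, and CCGGAA, a core bound by ETS factors, 142 bases before it.
SPRY2: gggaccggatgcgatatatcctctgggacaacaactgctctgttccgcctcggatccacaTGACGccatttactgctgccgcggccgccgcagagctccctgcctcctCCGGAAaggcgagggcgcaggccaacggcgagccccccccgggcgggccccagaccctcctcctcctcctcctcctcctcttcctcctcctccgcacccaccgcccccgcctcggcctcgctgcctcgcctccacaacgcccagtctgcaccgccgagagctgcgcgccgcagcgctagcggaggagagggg

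SPRY1, a Sprouty with low counts here, was the member that fell. In wt MET cells it was measured at 4.20 and 4.38 CPM at 0 h, 2.40 and 1.70 at 3 h, 2.42 and 1.35 at 6 h, and 5.72 and 6.26 at 12 h, on 20 to 120 counts per library. In MET∆14 cells the values were 5.41 and 5.07 CPM at 0 h, 3.01 and 3.28 at 3 h, 3.82 and 3.17 at 6 h, and 3.89 and 2.41 at 12 h. In wt MET cells the 3 and 6 h libraries lay below both 0 h libraries and the 12 h libraries above them, whereas every treated MET∆14 library stayed below 0 h. The fall with wt MET was 2.07-fold at 3 h (log2 -1.05 ± 0.29, adjusted p = 0.0193) and 2.25-fold at 6 h (log2 -1.17 ± 0.28, adjusted p = 0.00504). At 12 h the difference from 0 h was 0.48 ± 0.25 on the log2 scale (adjusted p = 0.150), after a called rise of 3.13-fold from 6 to 12 h. With MET∆14 the log2 differences from 0 h were -0.73, -0.60 and -0.69 at 3, 6 and 12 h (adjusted p = 0.0417, 0.0634 and 0.0456). These calls depend on single libraries. The call at 3 h with wt MET was lost without either 0 h replicate or replicate 2 of 3 h (adjusted p = 0.0694, 0.0730 and 0.170), and that at 6 h without replicate 2 of 6 h (log2 -0.80, adjusted p = 0.0763). With MET∆14, the call at 3 h was lost in 8 of the 16 fits that left out 1 library (either MET∆14 replicate of 0, 3 or 6 h or either wt MET replicate of 12 h) and under DESeq2 (adjusted p = 0.0932), the replicate block (0.0534) and each line alone (0.0665), and the call at 12 h in 11 of 16 (all but those without a wt MET library of 3 or 6 h or replicate 1 of MET∆14 cells at 12 h) and under DESeq2 (adjusted p = 0.0997) and each line alone (0.0607).

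SPRY1 lies on chromosome 4 (hg38, 123396795 to 123403760, plus strand). The window at the downstream of its 2 RefSeq starts is shown as that of the member that fell (chr4:123398136-123398435, plus strand), with CCGGAA in capitals 67 bases before the start.
SPRY1: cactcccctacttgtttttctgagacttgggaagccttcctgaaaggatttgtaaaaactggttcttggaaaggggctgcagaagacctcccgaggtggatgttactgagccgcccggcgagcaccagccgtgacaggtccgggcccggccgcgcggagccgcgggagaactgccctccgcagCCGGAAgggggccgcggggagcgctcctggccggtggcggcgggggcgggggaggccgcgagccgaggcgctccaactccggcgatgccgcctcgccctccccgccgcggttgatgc

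SPRED1, the SPRED that recruits neurofibromin and whose inherited loss causes Legius syndrome, rose by 3 h in MET∆14 cells and was called by 6 h in wt MET cells. In wt MET cells it was measured at 54.7 and 51.75 CPM at 0 h, 60.0 and 64.2 at 3 h, 76.5 and 77.0 at 6 h, and 77.5 and 75.8 at 12 h. In MET∆14 cells it stood at 33.2 and 36.9 CPM at 0 h, 71.6 and 76.4 at 3 h, 68.6 and 66.1 at 6 h, and 57.9 and 52.6 at 12 h. The order of the lines thus turned between 0 h, where both wt MET libraries were higher, and 3 h, where both MET∆14 libraries were higher. The change at 3 h was 2.11-fold with MET∆14 (log2 1.08 ± 0.09, adjusted p = 2.63e-07). With wt MET the log2 difference at 3 h was 0.22 ± 0.08 (adjusted p = 0.0878), which was called when either MET∆14 library of 12 h was left out (adjusted p = 0.0313 and 0.0191) or the line was fitted alone (0.0238). By 12 h the rises were 1.44-fold and 1.58-fold, and their difference of 0.13 ± 0.12 was not called (adjusted p = 0.481). SPRED1 lies on chromosome 15 (hg38, 38252836 to 38357249, plus strand).

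SPRED2, which inhibits ERK activation as SPRED1 does, led the 6 genes per kilobase in every MET∆14 condition (9.06 to 14.3 CPM per kilobase). Its fold changes were close to each other in the 2 lines. Its libraries gave 127 and 119.8 CPM at 0 h in wt MET cells, 198.5 and 192 at 3 h, 199 and 190.4 at 6 h, and 170.5 and 173 at 12 h. Those of MET∆14 cells gave 48.2 and 51.6, 75.8 and 81.95, 70.1 and 69.5, and 70.7 and 62.8 CPM at the same times. Every treated library lay above both 0 h libraries of its line. The rise was 1.58-fold at 3 h in either line, then 1.58-fold and 1.40-fold at 6 h, and 1.39-fold and 1.34-fold at 12 h, with wt MET first, and all of these passed the test. The test of a difference between the lines over the 3 times gave an adjusted p of 0.511. The difference at 3 h was 0.00 on the log2 scale, with an approximate 95% interval of -0.20 to 0.20. At 6 h it was -0.17 (-0.39 to 0.05). These intervals use a normal approximation and are narrower than ones that allow for the few degrees of freedom. The standard errors were derived from the tests, which is least certain for a change as small as that at 3 h. SPRED2 lies on chromosome 2 (hg38, 65310851 to 65432637, minus strand).

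SPRED3, a family member without a working KIT-binding domain, was at the low end of the family before HGF and rose at every time in both lines. In wt MET cells it was measured at 4.63 and 5.66 CPM at 0 h, 14.8 and 13.7 at 3 h, 18.0 and 17.3 at 6 h, and 14.1 and 12.0 at 12 h. In MET∆14 cells it was at 2.80 and 3.08 CPM at 0 h, 7.65 and 9.79 at 3 h, 10.03 and 11.6 at 6 h, and 19.05 and 14.1 at 12 h. Treated and untreated libraries did not overlap in either line, and both MET∆14 libraries of 12 h lay above those of 6 h. The rise with wt MET was 2.78-fold, 3.42-fold and 2.54-fold at 3, 6 and 12 h. With MET∆14 it was 2.98-fold and 3.68-fold at 3 and 6 h, and 5.66-fold at 12 h (log2 2.50 ± 0.19, adjusted p = 2.57e-07). The lines differed at 12 h by 1.16 ± 0.27 on the log2 scale (adjusted p = 0.00604). The further rise from 6 to 12 h with MET∆14 (log2 0.62 ± 0.16, adjusted p = 0.0168) was not called without replicate 1 of 12 h (0.36, adjusted p = 0.230) or without either replicate of 6 h (adjusted p = 0.113 and 0.0611).

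The gene lies on chromosome 19 (hg38, 38388421 to 38399587, plus strand). The window at its downstream RefSeq start is shown because SPRED3 had the largest mean response in wt MET cells (chr19:38389541-38389840, plus strand). Capitals mark TGACTCA, a form of the element TGANTCA bound by AP-1 factors, 60 bases before the start.
SPRED3: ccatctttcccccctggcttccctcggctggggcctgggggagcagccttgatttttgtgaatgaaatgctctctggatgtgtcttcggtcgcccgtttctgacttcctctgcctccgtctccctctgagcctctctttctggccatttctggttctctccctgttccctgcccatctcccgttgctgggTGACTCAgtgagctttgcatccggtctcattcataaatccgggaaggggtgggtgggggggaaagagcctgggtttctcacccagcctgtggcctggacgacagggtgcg

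Over the 3 treated times together, all 6 genes changed in wt MET cells, where 40.3% of all tested genes were called, and 5 of 6 in MET∆14 cells, where 54.1% were called. SPRY1 of MET∆14 cells was the exception (adjusted p = 0.0579), and it too was called with no filter on low counts (0.0235), with at least 10 counts in every library (0.0366), and without either wt MET library of 6 h (0.0380 and 0.0377) or either MET∆14 library of 12 h (0.00945 and 0.0268). At 3 h, 4 genes rose with wt MET, beside 10.3% of all tested genes, and 5 rose with MET∆14, beside 15.5%. At 6 h, 5 rose in each line, beside 16.4% of tested genes with wt MET and 21.6% with MET∆14. At 12 h, 5 rose with wt MET (16.9% of tested genes) and 4 with MET∆14 (18.3%). The median mean response of the 6 genes was 0.85 on the log2 scale with wt MET and 0.72 with MET∆14, beside -0.05 over all tested genes in either line. The members overlap neither each other nor any other annotated gene in their exons as GENCODE v44 gives them (0% on either strand).

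**Figure D2:**
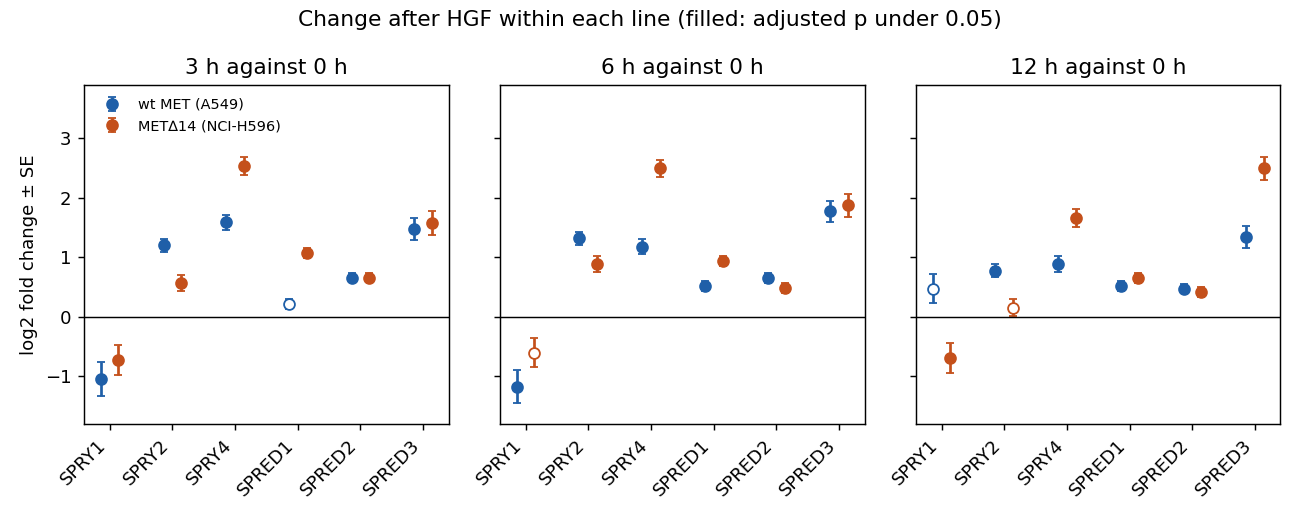
Log2 fold change of each gene at 3, 6 and 12 h against 0 h of its own line. Bars are 1 standard error, derived from edgeR's F statistics over 16 libraries. Filled points passed an adjusted p of 0.05. SPRY4 stood higher with MET∆14 in all 3 panels (2.54, 2.50 and 1.67, against 1.59, 1.18 and 0.89), and SPRED3 at 12 h was 2.50 with MET∆14 and 1.35 with wt MET.

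With all 16 libraries in 1 fit, most called steps came before 3 h or after 6 h. From 3 to 6 h edgeR called 0 of the 6 genes with wt MET, where 3.10% of all tested genes were called, with 2 genes at an unadjusted p under 0.05 and 1 gene, SPRED1, called by DESeq2. With the wt MET line fitted alone by edgeR, 2 were called, beside 951 of all tested genes. SPRY4 fell (log2 -0.40, adjusted p = 0.00221) and SPRED1 rose (0.31, adjusted p = 0.0147). With MET∆14, edgeR called 0 of 6 in the fit of all libraries, where 9.77% of tested genes were called, with 2 at an unadjusted p under 0.05 and 0 by DESeq2. From 6 to 12 h, 2 genes changed with wt MET, SPRY1 upwards and SPRY2 downwards (log2 difference -0.55 ± 0.10), beside 11.6% of tested genes. With MET∆14, 4 genes changed in that step, beside 18.6% of tested genes: SPRY2 (-0.74), SPRY4 (-0.83) and SPRED1 (-0.28) fell, and SPRED3 rose. SPRED1 of that step lost its call without either wt MET replicate of 6 or 12 h, either MET∆14 replicate of 6 h or replicate 2 of MET∆14 cells at 12 h, 7 of the 16 fits that left out 1 library, with adjusted p up to 0.148. The SPRED1 call was also lost with no filter (adjusted p = 0.0590), the replicate block (0.05845) and each line alone (0.0905). SPRED3 of that step lost its call with each line alone (adjusted p = 0.0587). The 12 h replicates of MET∆14 cells are the noisiest pair of the series, and replicate 2 was below replicate 1 for all 6 genes. Without either of them, the step from 6 to 12 h with wt MET had 5 called genes, SPRY4, SPRED2 and SPRED3 included as falls. The numbers of all tested genes called in these steps moved too when 1 library was left out. From 3 to 6 h they ranged from 96 to 1264 with wt MET (467 with all libraries) and from 459 to 3100 with MET∆14 (1472), and from 6 to 12 h from 686 to 3182 (1743) and from 852 to 6434 (2806). The lowest of these came without replicate 2 of 6 h in 3 of the 4 steps and without replicate 1 of wt MET cells at 12 h in the other, and the highest without a MET∆14 library of 12 h in all 4.

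The response differed between the lines for 5 of the 6 genes over the 3 times, beside 37.6% of all tested genes. SPRY4, SPRED1 and SPRED3 had the larger mean rise with MET∆14 (differences of 1.01, 0.47 and 0.45 on the log2 scale, adjusted p = 0.000669, 0.000247 and 0.00342). SPRY2 had the larger mean rise with wt MET (difference -0.56, adjusted p = 0.0263), a call that was lost without replicate 1 of wt MET cells at 0 h (adjusted p = 0.102), replicate 2 of MET∆14 cells at 0 h (0.257) or replicate 2 of MET∆14 cells at 3 h (0.0540). For SPRY1 the mean difference was -0.09 because its sign changed between times, at 0.32 and 0.57 at 3 and 6 h (adjusted p = 0.647 and 0.281) and -1.16 ± 0.35 at 12 h, which alone was called (adjusted p = 0.0263). At 3 h, 3 genes differed between the lines, beside 17.4% of tested genes: SPRY2, SPRY4 and SPRED1. At 6 h, 2 did, beside 30.2%: SPRY4 and SPRED1. At 12 h, 4 did, beside 24.0%: SPRY1, SPRY2, SPRY4 and SPRED3. At 3 h SPRY2 lost its call without the same libraries as above (adjusted p up to 0.172), and at 12 h without replicate 1 of wt MET cells at 0 or 12 h or replicate 2 of MET∆14 cells at 0 h (adjusted p up to 0.193). SPRED1 at 6 h lost it without replicate 1 of wt MET cells at 0 h, either wt MET replicate of 6 h, or replicate 1 of MET∆14 cells at 0 or 6 h (adjusted p = 0.0509 to 0.123). SPRY1 at 12 h lost its call without any 1 of the 0 h libraries of either line or the 12 h libraries of wt MET cells (adjusted p = 0.0529 to 0.0785).

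Summed per kilobase, the 6 genes were highest at 3 and 6 h in both lines, and higher with wt MET at every time. SPRY3, a Sprouty gene outside the 6, is not in this sum. Before HGF, SPRY3 was higher in MET∆14 cells by 4.08 on the log2 scale (edgeR's quasi-likelihood test, adjusted p = 1.06e-08). With wt MET the sum was 59.4 ± 1.6 CPM per kilobase (SD, n = 2) at 0 h, 115.8 ± 1.3 at 3 h, 117.7 ± 0.81 at 6 h and 93.95 ± 0.19 at 12 h. With MET∆14 it was 20.6 ± 1.9, 41.7 ± 1.5, 40.6 ± 0.02 and 32.3 ± 4.0 at the same times. The highest MET∆14 mean was below the wt MET mean of 0 h. The composition differed as well. SPRY1, SPRY2 and SPRY4 together made up 49.1% of the sum in wt MET cells at 0 h and 60.4% at 3 h. In MET∆14 cells they made up 31.4% and 39.15%. Of these, SPRY2 was the largest with wt MET at all times (36.5% to 46.1% of the sum). In MET∆14 cells SPRY4 went from 8.575% at 0 h to 25.0% at 3 h and passed SPRY2, which went from 16.4% to 12.2%. SPRED3 went from 2.44% to 8.70% of the sum in MET∆14 cells by 12 h. These shares are descriptions, with no test.

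**Figure D3:**
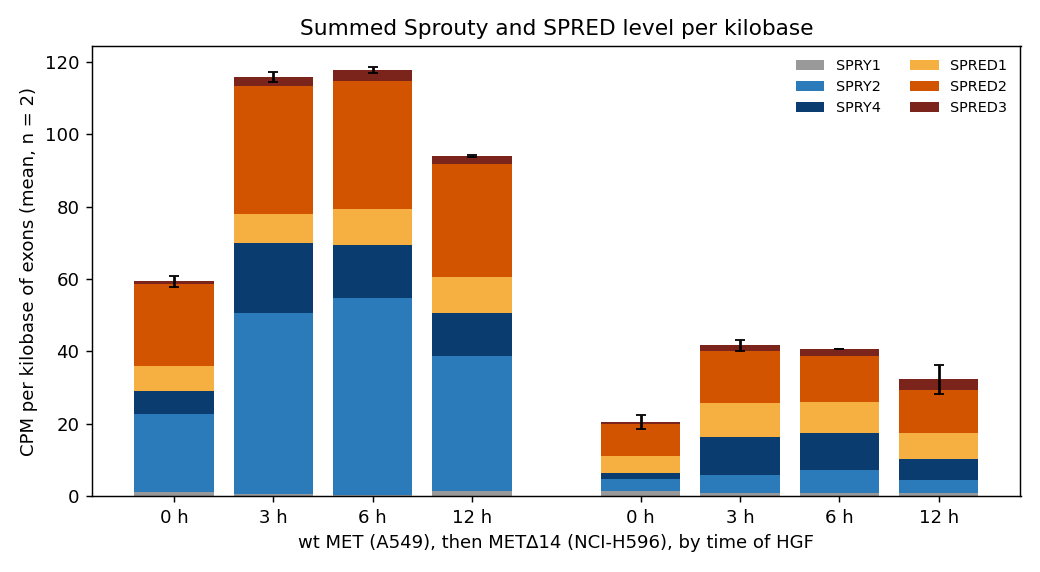
Stacked mean CPM per kilobase of exons of the 6 genes (bars from 0, n = 2 libraries each) in wt MET cells, left, and MET∆14 cells, right. Error bars are the SD of the sum of the 6. The tallest MET∆14 bar (41.7 at 3 h) is below the 0 h bar of wt MET cells (59.4).

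The order of the 8 conditions set the members apart from each other. For SPRY2 and SPRED2 all 4 wt MET conditions ranked above all 4 MET∆14 conditions. For SPRY4 wt MET cells held the first 3 places, and wt MET at 0 h (42.3 CPM) overlapped MET∆14 at 12 h (37.05 CPM). For SPRED1 the first 3 places, wt MET at 6 h, wt MET at 12 h and MET∆14 at 3 h, overlapped with their neighbours. For SPRED3 the first 4 did, namely wt MET at 6 h, MET∆14 at 12 h, wt MET at 3 h and wt MET at 12 h. SPRY1 was highest in wt MET cells at 12 h and lowest there at 6 h, which overlapped 3 h.

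The 11 RefSeq promoter windows of the 6 genes were searched on both strands for TGANTCA (AP-1), CCGGAA (ETS), TGACG (first letters of a cAMP response element) and CACGTG (E-box), none of which overlapped another in the matches found. TGANTCA, present in 7.72% of 34943 windows of all genes, was found in the shown window of SPRED3 and at 2 places in a window of SPRED2 (chr2:65366729-65367028), 6 bases before and 34 bases after the start. CCGGAA, in 17.2% of all windows, was found in the shown windows of SPRY1 and SPRY2. TGACG, in 24.5% of all windows, was found in those of SPRY2 and SPRY4 and in another of SPRED2. The E-box, in 7.23% of all windows, was found in none, and SPRED1 held none of the 4. A match is a description of letters and was set against no binding data.

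Within the family, SPRY4 and SPRED2 followed each other across the 16 libraries after each line's own mean was taken off (Pearson's r = 0.91 over log2 CPM, 0.96 within each line), and SPRY1 ran against every other member in the pooled libraries (r = -0.57 to -0.31). These values and the following ones are descriptions of libraries that share a line and an HGF schedule. SPRY4 and SPRED1 reached 0.99 among the 8 MET∆14 libraries and 0.52 among the 8 wt MET libraries. Among 8571 well expressed genes, the ones most like SPRY4 were HSPH1 (r = 0.98), a heat shock protein, LARP4B (0.98, an RNA-binding protein) and ZYX (0.97), which encodes the focal adhesion protein zyxin. SPRED1 was most like CBFB (0.98), MOSMO (0.98) and FERMT2 (0.97), of which FERMT2 encodes the integrin activator kindlin-2. SPRED2 was most like LONRF3 (0.97), STK4 (0.96) and RAPH1 (0.96). SPRED3 was most like PDLIM7 (0.97), and CAPRIN2 (0.96) was also among its 3 genes. SPRY2 was most like HRH1 (0.95), a histamine receptor, ELL2 (0.94) and NUP98 (0.94), and SPRY1 most like BLOC1S3, THSD1 (0.90 each) and ABHD10 (0.88). With Spearman's rho, 2 of the 3 genes were shared for SPRY1 and SPRY4, 1 for SPRED1 and SPRED3, and 0 for SPRY2 and SPRED2.

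The pathway around the family moved unevenly. Over the 3 times together 19.2% of all tested genes were called higher and 21.1% lower with wt MET, and 25.6% higher and 28.5% lower with MET∆14. Direction here is the sign of the mean over the 3 times, so a gene counted as a fall may have risen at one of them. Of 14 partners of Sprouty and SPRED proteins, 6 rose and 2 fell in each line, with a median log2 change of 0.18 with wt MET and 0.20 with MET∆14, beside -0.05 over all tested genes. NF1, the partner of SPRED1, rose with wt MET (mean log2 change 0.71, adjusted p = 0.00111) and had -0.01 with MET∆14, and DYRK1A, a kinase that phosphorylates Sprouty, had 0.52 and -0.11 (adjusted p of the difference 0.00711 and 0.000425). With MET∆14 the ubiquitin ligase gene CBLB fell by 0.88 on the log2 scale and CBL rose by 0.62. With wt MET they had -0.05 and 0.49, and the difference was called for CBLB (adjusted p = 0.00106) but not for CBL (0.3185). Of 18 genes of the RAS-ERK cascade, 7 rose and 4 fell in each line, with medians of 0.15 and 0.05. BRAF and SOS2, a RAF kinase and a RAS activator, rose most with wt MET (0.82 and 0.65). The adaptor gene GAB1 and the RAS activator gene SOS1 fell most with MET∆14 (-0.96 and -0.60). GAB1 had -0.23 with wt MET, and its difference between the lines was not called (adjusted p = 0.183).

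Of 14 other feedback inhibitors, 7 rose and 2 fell with wt MET (median 0.22), and 8 rose and 4 fell with MET∆14 (median 0.65). By time, with MET∆14, 9 rose and 1 fell at 3 h (median 1.02), and 4 rose and 3 fell at 12 h (median 0.05). For wt MET, 6 rose and 2 fell at 3 h (median 0.33), and 5 rose and 1 fell at 12 h (median 0.16). Among these genes, ERRFI1, an inhibitor of the EGF receptor, and SOCS3, an inhibitor of cytokine signalling, rose most with wt MET (mean log2 change 0.77 and 0.66). With MET∆14, ERRFI1 had 0.77 as well (adjusted p of the difference 0.2605) and SOCS3 had -0.45 (0.000119). SH2B3, an adaptor that dampens cytokine receptors, and DUSP7, an ERK phosphatase, rose most with MET∆14 (1.44 and 1.27), and both responded more there (adjusted p of the difference 0.000113 and 6.2e-05). SPRY3, the remaining Sprouty gene, was at 0.538 to 1.75 CPM in wt MET cells and at 8.35 to 16.6 CPM in MET∆14 cells, opposite to the order of SPRY2 and SPRY4, and its change after HGF was not called in either line (adjusted p = 0.653 and 0.0515).

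Of 16 genes of ERK output, 13 rose and 2 fell with wt MET (median 0.95), while 7 had a positive and 7 a negative mean with MET∆14 (median -0.03). The times differed: with MET∆14, 9 rose and 1 fell at 3 h (median 0.31), and 5 rose and 8 fell at 12 h (median -0.28). With wt MET, 11 rose at 3 h, and 9 rose and 1 fell at 12 h. All 16 were called in the test of a difference between the lines, beside 37.6% of all tested genes. EGR3 and EGR2, early response transcription factors, rose most with wt MET (5.40 and 4.01, at 3 h 7.89 and 6.18) from 0.321 and 4.14 CPM at 0 h, and had means of -0.07 and -0.54 with MET∆14. At 3 h both rose with MET∆14 as well, by 2.24 and 0.98 on the log2 scale (adjusted p = 1.365e-06 and 0.00236). FOSL1, an AP-1 subunit, and SPHK1, a sphingosine kinase, rose most with MET∆14 (2.325 and 1.98). Both rose with wt MET too (0.99 and 1.14). Of 14 receptor tyrosine kinase genes, 2 rose and 7 fell in each line (medians -0.14 and -0.29). ERBB3 fell in both lines (-1.32 with wt MET and -1.46 with MET∆14), and its call with wt MET, on 1.83 CPM at 0 h, was lost without replicate 1 of 0 h (adjusted p = 0.156) or of 6 h (0.0635). INSR, the insulin receptor gene, fell most but for ERBB3 with wt MET (-0.70), and FGFR3 did so with MET∆14 (-1.14). INSR fell with MET∆14 as well (-1.06), and by more (adjusted p of the difference 0.0106).

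**Figure D4:**
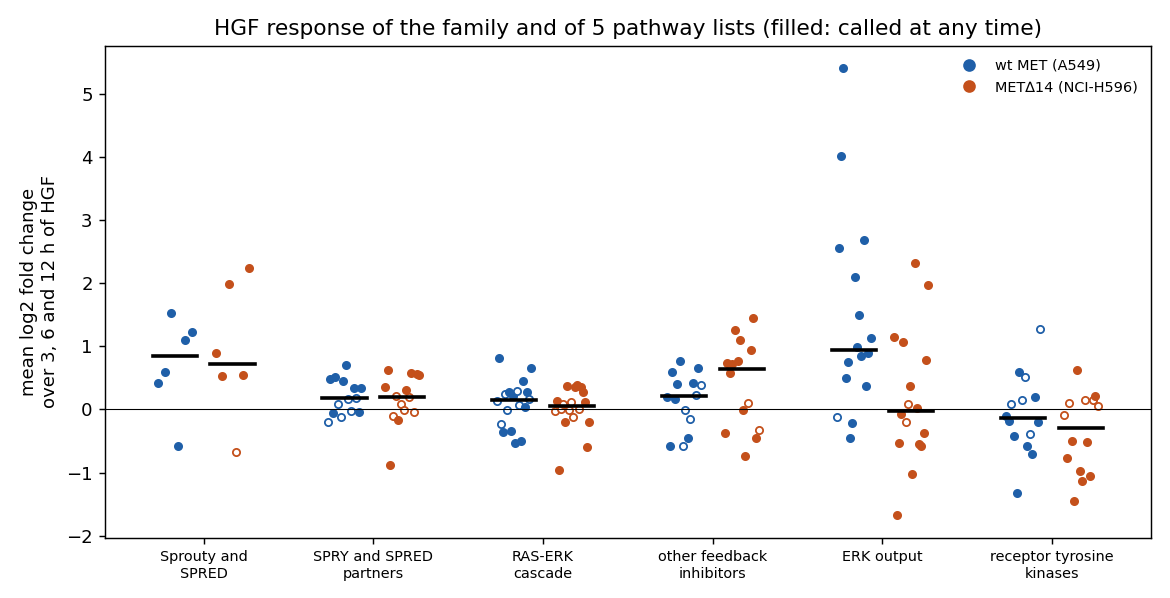
Mean log2 fold change over 3, 6 and 12 h of HGF for the 6 genes and for the genes of 5 pathway lists, in wt MET (blue) and MET∆14 (orange) cells. Points are genes, filled where called at any time, and black bars are medians. The ERK output genes are spread widely in both lines, mostly upwards with wt MET (median 0.95) and in both directions with MET∆14 (-1.68 to 2.325, median -0.03), while the Sprouty and SPRED medians are 0.85 and 0.72.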

How the data were processed

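RNA-seq was analysed from 16 libraries, with replicates as the labels number them. Per the study's methods and processing notes, the authors trimmed and mapped reads to hg38; STAR 2.5.0 and RSEM 1.3.2 are named there. The deposited values are whole-number counts per gene, not normalized. The counting step, its annotation and its use of strand are not given in the sources used here, nor whether RSEM estimates were rounded. Columns spelling the wt MET line slightly differently were matched by the rest of the name.

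The members and gene lists were chosen with earlier results of these data known. In R 4.3.3, edgeR 4.0.16 (limma 3.58.1) kept genes by filterByExpr (minimum count 10, minimum total 15; 99.96% of counts), scaled them by TMM and fitted 1 coefficient per condition by robust quasi-likelihood (common biological coefficient of variation 0.0868). The 2 replicates per condition limit precision. Contrasts from 1 line share its 0 h libraries. F tests covered the 3 times together, and the direction of a call over them is the sign of the mean log2 change. Standard errors of single contrasts were the absolute log2 change divided by the square root of its F statistic. Adjustment followed Benjamini and Hochberg (threshold 0.05). The scripts were tested on simulated data. CPM used TMM-scaled library sizes, log2 CPM a prior count of 2, and exon lengths GENCODE v44 (42275 of 42351 genes). Exons were merged over all annotated transcripts of a gene, so a length can exceed that of the RNA made. Likeness was computed on genes averaging 3 or more in log2 CPM in both lines. Named were the 6 members, the checks, the 3 genes most like each member and, per list and line, the 2 largest mean changes among called genes; SPRY3 was singled out after its values were seen, and 1 gene that the rule names is not reported here. Promoters came from RefSeq tables matched by symbol (6 of 6). Alternatives were DESeq2 1.42.0, its size factors, other count filters, each line alone, a replicate block, and each library left out; those of the pathway lists were chosen after seeing the data. Figures used Python 3.11.15 and matplotlib 3.10.9.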

Additional observations from a re-analysis of the deposited data

Results flagged for a closer look

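The HGF response of 5 of the 6 genes differed between the lines, beside 37.6% of all tested genes. This was a test of the difference itself, the interaction of line and time over 3, 6 and 12 h. The adjusted p was 0.000247 for SPRED1, whose rise at 3 h was seen with MET∆14 (log2 1.08) and was 0.22 with wt MET. It was 0.000669 for SPRY4, which rose by the larger fold with MET∆14 at every time, from a lower start. For SPRED3 it was 0.00342, with the lines apart at 12 h. For SPRY1, on few counts, it was 0.00749, and for SPRY2, which rose more with wt MET, 0.0263. The call of SPRY2 depends on single libraries, as given above. Each MET status is 1 cell line, so the receptor and the line cannot be told apart as the source of these differences.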

How the results depend on the processing

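Of 2214 values of single members under the alternatives, 2108 kept their side of the threshold, 65 lost a call, 40 gained one and 1 reversed: the mean difference of SPRY1 between the lines became 0.0610 without replicate 1 of wt MET cells at 6 h (adjusted p = 0.00365), and ranged down to -0.232 without other libraries. Among the 2108, 33 that were not called with all libraries changed sign, 14 of them for the difference of SPRED2 at 3 h. From 3 to 6 h with wt MET the 0 called genes became 1 with DESeq2's size factors, DESeq2, no filter or at least 10 counts in every library, and 2 with each line alone. From 6 to 12 h, each line alone gave 5 in place of 2 with wt MET and 2 in place of 4 with MET∆14. At 6 h the differences between the lines fell from 2 to 1 with no filter. Each line alone also moved the numbers of all tested genes called. With wt MET they went from 467 to 951 from 3 to 6 h and from 1743 to 2801 from 6 to 12 h. With MET∆14 they went from 2806 to 1422 from 6 to 12 h. Leaving out 1 library gave 0 to 2 and 2 to 5 for those steps with wt MET, 0 to 1 and 2 to 4 for the steps with MET∆14, and 2 to 3, 1 to 3 and 2 to 4 for the differences at 3, 6 and 12 h. It gave 5 to 12 called receptor tyrosine kinases with wt MET (5 without replicate 1 at 12 h) and 6 to 13 called partners with MET∆14 (13 without replicate 2 at 12 h). The cause was not tested. Replicate numbers did not pair the libraries: deviations of same-numbered libraries correlated at -0.16 to 0.03 within lines. With no filter or at least 10 counts in every library, all 6 genes were called over the 3 times in MET∆14 cells in place of 5. These filters test other numbers of genes, and called 8976 and 7252 of them, against 8157. With the replicate block, MET∆14 cells had 5 called genes in place of 6 at 3 h and 3 in place of 4 from 6 to 12 h. All tested genes called there fell from 4769 to 4397 and from 2806 to 2228. With about 20 to 120 counts per library, SPRY1 is the member that depth limits most. The numbers of all tested genes called moved by over 1.5 times without 1 library also at 3 h (1363 to 4141 with wt MET, where all libraries gave 2629), and in the difference at 3 h (1743 to 4132, against 2621), with the highest values without replicate 1 of MET∆14 cells at 12 h. They fell to 3268 from 5153 and to 3046 from 5284 with wt MET at 6 and 12 h (without replicate 2 of 6 h and replicate 1 of 12 h), and to 3029 from 4769 and 3722 from 5774 with MET∆14 at 3 and 12 h (without replicate 1 of 0 h).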
